A study of Homo sapiens with 4 samples.

Results

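The 6 genes described here, STARD3, FDX1, CYP11A1, HSD3B1, CYP19A1 and HSD17B1, encode the steps by which trophoblast makes steroid hormones. They were chosen by symbol, with earlier results of these data known, and are 6 of the 36601 genes in the count tables. They were followed through single-cell 3′ RNA libraries of H9 naive embryonic stem (nES) cells, an established human line, grown towards the blastocyst-like structures called blastoids. All cultures were aggregated in microwells and moved through PALLY medium, which holds an ERK pathway inhibitor, a TGFβ receptor inhibitor, LIF, LPA and a ROCK inhibitor, and blastoids went on to LY medium, with LPA and the ROCK inhibitor alone. Treated cultures had 4 mM dimethyl α-ketoglutarate (dm-αKG), a cell-permeable ester of the metabolite αKG, for the initial 40 h, and the controls had 0 mM. Aggregates were taken at 40 h, when treatment ended, and single-cavity blastoids, picked by hand, at 120 h. Run 1 held aggregates and blastoids at both doses, and run 2, an independent experiment, held blastoids at both doses, so there were 2 blastoid cultures and 1 aggregate culture per dose. A culture marked by its hashtag antibody in 1 run is called an arm below, and arms, not cells, were the replicates.

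Steroid synthesis in the placenta starts from cholesterol that is brought to the mitochondrion, where CYP11A1 cuts its side chain with electrons carried by the small iron-sulfur protein FDX1. HSD3B1 turns the pregnenolone made there into progesterone, the hormone that keeps the uterus quiescent. CYP19A1 (aromatase) turns androgens into oestrogens and HSD17B1 reduces oestrone to oestradiol, and both are hallmarks of human trophoblast, most of all of the syncytiotrophoblast.

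Blastoid cells were split by 9 other genes of the same cells. A cell was TE-like, for trophectoderm, where its UMIs (counted molecules) of KRT8, KRT18, GATA3 and CLDN4 together outnumbered those of POU5F1, DPPA5, DPPA4, L1TD1 and TDGF1, and Epi-like, for epiblast, otherwise. This gave 49 (4 mM) and 18 (0 mM) TE-like cells in run 1, and 170 (4 mM) and 181 (0 mM) in run 2, which were between 3.42 and 4.64% of the kept cells of each arm. TE-like sums held 1614724 UMIs (4 mM) and 456611 UMIs (0 mM) in run 1, 2951739 UMIs (4 mM) and 2981693 UMIs (0 mM) in run 2, against 11818706 to 81804868 in the Epi-like sums and 30770380 and 36113833 in the aggregates at 4 and 0 mM. Of 10 TE marker genes that the split did not use, all 10 were higher in TE-like cells, and of 10 Epi markers 9 were lower and DNMT3L was higher. Of all genes tested between the classes, 23.1% were higher and 25.8% lower in TE-like cells. CDX2, HAND1 and TFAP2A passed the filter on low counts for this test only through their TE-like sums. Primitive endoderm markers summed to 35.3 CPM (4 mM) and 94.2 CPM (0 mM) in the TE-like cells of run 1, and to 35.9 CPM (4 mM) and 8.38 CPM (0 mM) in run 2, where CPM is UMIs scaled to a library total of 1000000. Of the 8 genes 0 to 3 were at 0. Amnion markers summed to 13.1 to 21.9 CPM, with GABRP at 0 in all 4 sums, and mesoderm markers to at most 2.37 CPM, with EOMES and HAND2 at 0 in all 4. The share of singlets that passed the cell filter was 73.1% (4 mM) and 44.8% (0 mM) in run 1, 89.0% (4 mM) and 81.0% (0 mM) in run 2, and 55.7% (4 mM) and 71.7% (0 mM) for aggregates, and 28 barcodes occurred in both runs.

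The promoters of HSD3B1, whose level differed most between doses of the 6, and of its nearest relative are shown to set the placental gene beside a copy with no UMI in these libraries. HSD3B1 lies on chromosome 1 in GRCh38 (chr1:119507198-119515054, plus strand), near HSD3B2 (chr1:119414931-119423035, plus strand), the isoform of adrenal and gonad, by the GENCODE annotation. The windows are 300 bases around a RefSeq start site (GRCh38.p14; for HSD3B1 the first of its annotated sites), at chr1:119506953-119507252 for HSD3B1 and chr1:119414681-119414980 for HSD3B2, both read on the plus strand. Capitals mark the half-site of nuclear receptors (AGGTCA), the motif of GATA factors (AGATAA) and the motif of TEAD factors (GGAATG), searched on both strands.
HSD3B1: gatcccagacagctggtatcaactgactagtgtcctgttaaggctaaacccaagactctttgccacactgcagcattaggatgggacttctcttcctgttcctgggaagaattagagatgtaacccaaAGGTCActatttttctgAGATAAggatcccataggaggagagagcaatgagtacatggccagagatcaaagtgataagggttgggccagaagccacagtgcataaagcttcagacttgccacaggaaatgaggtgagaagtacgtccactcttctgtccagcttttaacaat
HSD3B2: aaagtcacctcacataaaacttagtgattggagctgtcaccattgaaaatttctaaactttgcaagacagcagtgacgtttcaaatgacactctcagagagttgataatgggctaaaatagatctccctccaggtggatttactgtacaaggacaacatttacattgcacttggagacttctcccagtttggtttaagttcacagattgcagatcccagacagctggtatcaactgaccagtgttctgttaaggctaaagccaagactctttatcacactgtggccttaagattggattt
The HSD3B1 window held AGGTCA at 122 bases and AGATAA at 105 bases before the start site, and the HSD3B2 window held none of the 3. The last 89 bases of the HSD3B2 window matched the initial 89 bases of the HSD3B1 window at 78 positions, upstream of both HSD3B1 matches. Single matches were common: AGGTCA stood in 13.8%, AGATAA in 10.3% and GGAATG in 14.0% of 35116 promoter windows. Of the other genes, FDX1 held 1 AGGTCA, CYP11A1 and STARD3 held none of the 3 motifs, and 4 of 7 annotated CYP19A1 start sites held at least 1. No match of one motif overlapped a match of another, and the windows of 2 CYP19A1 sites overlap and share 1 GGAATG match. HSD17B1 was not matched, so 5 of the 6 genes had a window.

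STARD3 moves cholesterol out of late endosomes and is thought to stand in for STAR in placenta. It was present at nearly the same level in every kind of cell. TE-like cells had 11.1 CPM at 4 mM and 13.1 CPM at 0 mM in run 1. In run 2 they had 9.82 CPM at 4 mM and 12.1 CPM at 0 mM. Epi-like cells had 12.0 and 12.8 CPM at 4 and 0 mM in run 1. They had 12.7 and 12.6 CPM at 4 and 0 mM in run 2. In TE-like cells both 4 mM values lay below both 0 mM values, and all 4 Epi-like values lay within the TE-like range. In edgeR's quasi-likelihood test the log2 fold change (log2FC) was −0.30 ± 0.36 (SE) for 4 mM over 0 mM in TE-like cells (adjusted p = 0.892). It was −0.02 ± 0.09 in Epi-like cells (adjusted p = 0.948) and 0.07 ± 0.18 for TE-like over Epi-like cells (adjusted p = 0.769). STAR itself had 1.24 CPM (run 1) and 0.34 CPM (run 2) in TE-like cells at 4 mM, against 0 UMIs in both runs at 0 mM, where 1 UMI in run 1 would have been 2.19 CPM. Epi-like cells had 0.76 to 2.49 CPM of STAR.

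FDX1 was expressed everywhere and was higher in TE-like cells. TE-like cells had 66.9 CPM at 4 mM and 56.9 CPM at 0 mM in run 1. In run 2 they had 60.0 CPM at 4 mM and 60.4 CPM at 0 mM. Epi-like cells had 39.1 and 36.5 CPM at 4 and 0 mM in run 1. They had 32.7 and 34.2 CPM at 4 and 0 mM in run 2. All 4 TE-like values thus stood above all 4 Epi-like values, with a log2FC of 1.03 ± 0.10 (2.04-fold, adjusted p = 4.26e-07, edgeR). Between doses the log2FC was 0.05 ± 0.20 in TE-like cells (adjusted p = 0.976) and 0.00 ± 0.07 in Epi-like cells (unadjusted p = 0.996). In run 1 42 of 49 TE-like cells at 4 mM and 9 of 18 at 0 mM had an FDX1 UMI, but when each cell was thinned to 5000 UMIs the calculated shares were 28.8% (4 mM) and 21.6% (0 mM), and in run 2 they were 24.9% at both doses. FDXR, which passes electrons to FDX1, had log2FC of −0.13 ± 0.23 between doses in TE-like cells and 0.00 ± 0.12 between classes (adjusted p = 0.934 and 0.992, edgeR) and fell by 0.21 ± 0.07 in Epi-like cells at 4 mM (adjusted p = 0.0447).

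CYP11A1, the side-chain cleavage enzyme that starts all steroid synthesis, was far higher in TE-like than in Epi-like cells in all 4 arms. It had 52 UMIs (32.2 CPM) at 4 mM and 12 UMIs (26.3 CPM) at 0 mM in the TE-like cells of run 1. The run 2 cells had 74 UMIs (25.1 CPM) at 4 mM and 48 UMIs (16.1 CPM) at 0 mM. Epi-like cells had 0.34 and 0.42 CPM at 4 and 0 mM in run 1. They had 0.33 and 0.37 CPM at 4 and 0 mM in run 2. The lowest TE-like value was far above the highest Epi-like value, and the log2FC between classes was 6.25 ± 0.28 (76.3-fold, adjusted p = 1.9e-11, edgeR). CYP11A1 entered this test only through its TE-like sums, since the filter asked for 1.35 CPM in 4 sums. Without the filter the log2FC was 6.15 ± 0.27 (adjusted p below 0.05, edgeR). Within TE-like cells the level was higher at 4 mM in both runs, but run 2 at 4 mM lay below run 1 at 0 mM, and the log2FC of 0.51 ± 0.28 did not pass (adjusted p = 0.603). The share of TE-like cells with a UMI was 53.1% (95% exact binomial interval 38.3 to 67.5%) at 4 mM and 27.8% (9.69 to 53.5%) at 0 mM in run 1. The share in run 2 was 28.8% (22.1 to 36.3%) at 4 mM and 16.6% (11.5 to 22.8%) at 0 mM. Thinned to 5000 UMIs per cell these became 13.4% (4 mM) and 8.66% (0 mM) in run 1, and 10.8% (4 mM) and 6.21% (0 mM) in run 2. Intervals cover counting error only here and below. In Epi-like cells 0.52 to 1.23% of cells had a CYP11A1 UMI, and in that class the dose log2FC was −0.20 ± 0.39 (adjusted p = 0.822).

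HSD3B1, which makes progesterone, had the largest fitted change between doses of the 5 genes tested. It had 75 UMIs (46.4 CPM, exact Poisson interval 36.5 to 58.2) in 49 TE-like cells at 4 mM and 0 in 18 cells at 0 mM in run 1, where 3 UMIs would have been 6.57 CPM. In run 2 it had 62 UMIs (21.0 CPM, 16.1 to 26.9) at 4 mM and 8 UMIs (2.68 CPM, 1.16 to 5.29) at 0 mM. Both 4 mM values stood above both 0 mM values. In run 1 the level at 4 mM was at least 7.07-fold higher, taking 3 UMIs per library as the floor. In run 2 the ratio was 7.83 (3.74 to 18.9). The fitted log2FC was 3.40 ± 0.45 (10.5-fold, adjusted p = 2.8e-05, edgeR). HSD3B1 entered this test only through the 4 mM arms, since its 0 mM values were below the 4.38 CPM that the filter on low counts asked of 2 arms. Without the filter the log2FC was 3.42 ± 0.43 (adjusted p below 0.05, edgeR). The call rested on run 2 at 0 mM: without that arm, which leaves 0 UMIs at 0 mM, the log2FC was 8.74 ± 2.16 (adjusted p = 0.137), a fitted value and no bound. It held without any of the other 3 arms, with log2FC of 3.15 to 4.29. With an arm left out the run was not in the model, and the lone arm was taken to vary like the others. With all hashtag singlets kept, where run 2 at 0 mM had 17 UMIs (5.37 CPM), the log2FC was 2.55 ± 0.35 (5.86-fold, adjusted p below 0.05, edgeR). DESeq2 gave a log2FC of 4.35 with an unadjusted p of 0.0105 and no adjusted p.

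Expressed per cell, HSD3B1 was found in 21 of 49 TE-like cells at 4 mM (42.9%, 28.8 to 57.8%) and in 0 of 18 at 0 mM, which allows a share of cells with a UMI of up to 16.7% (exact interval up to 18.5%), in run 1. In run 2 it was found in 30 of 170 cells at 4 mM (17.6%, 12.2 to 24.2%) and in 5 of 181 at 0 mM (2.76%, 0.90 to 6.33%). At 5000 UMIs per cell the calculated shares were 16.9% at 4 mM and 0 at 0 mM in run 1, and 8.17% at 4 mM and 0.89% at 0 mM in run 2. The UMIs were uneven between cells: at 4 mM the 5 highest of 49 TE-like cells held 60.0% of them in run 1 and the 17 highest of 170 held 79.0% in run 2, with up to 14 UMIs in a cell in run 1 and 7 in run 2. Epi-like cells, which are not known to use this gene, had 1 UMI in 1043 cells (4 mM) and 1 in 408 (0 mM) in run 1. In run 2 they had 9 in 4804 (4 mM) and 1 in 3719 (0 mM), so that 0.03 to 0.25% of Epi-like cells had a UMI. In run 2 at 4 mM the TE-like level was 191-fold the Epi-like level (94.4 to 437). HSD3B1 fell short of the filter for the test between classes, with 3 of 4 needed sums above 1.35 CPM. Without the filter its log2FC was 8.14 ± 0.41 (adjusted p below 0.05, edgeR). HSD3B2 had 0 UMIs in all 10 sums, where 3 UMIs in the smallest sum would have been 6.57 CPM.

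CYP19A1, the aromatase that makes oestrogens, was near the limit of detection. It had 7 UMIs at 4 mM and 0 at 0 mM in the TE-like cells of run 1, and 12 UMIs (4.07 CPM) at 4 mM and 11 UMIs (3.69 CPM) at 0 mM in run 2, of which 6 came from 1 cell at 0 mM. No difference between doses was detectable at this depth: 7 UMIs were 4.34 CPM, under the floor of 6.57 CPM for run 1 at 0 mM, and the ratio in run 2 was 1.10 (0.45 to 2.76). It did not pass the filter for this test, and without it the log2FC was 0.51 ± 0.70 (adjusted p = 0.996, edgeR). Epi-like cells had 2 and 0 UMIs at 4 and 0 mM in run 1, and 6 and 0 UMIs at 4 and 0 mM in run 2. The unfiltered log2FC of TE-like over Epi-like cells was 6.50 ± 0.70 (adjusted p below 0.05, edgeR).

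HSD17B1, which makes oestradiol, was higher at 4 mM in the TE-like cells of both runs and was found in most TE-like cells at that dose. It had 1114 UMIs (690 CPM) at 4 mM and 177 UMIs (388 CPM) at 0 mM in run 1. Run 2 had 1388 UMIs (470 CPM) at 4 mM and 737 UMIs (247 CPM) at 0 mM. Both values at 4 mM stood above both at 0 mM, and within a run the ratio was 1.78 (1.52 to 2.10) in run 1 and 1.90 (1.74 to 2.08) in run 2. The fitted log2FC was 0.86 ± 0.13 (1.82-fold, adjusted p = 0.000227, edgeR), and DESeq2 gave 0.85 with an adjusted p of 0.00897. The call was lost without run 1 at 4 mM (log2FC 0.59, adjusted p = 0.629), without run 2 at 0 mM (log2FC 0.55, adjusted p = 0.451) and with the run left out of the model (log2FC 0.90, adjusted p = 0.105). A UMI was found in 91.8% of TE-like cells at 4 mM (80.4 to 97.7%) and in 9 of 18 cells at 0 mM (26.0 to 74.0%) in run 1. In run 2 it was found in 78.2% at 4 mM (71.3 to 84.2%) and 49.7% at 0 mM (42.2 to 57.2%). These differences remained at 5000 UMIs per cell, with 82.8% (4 mM) and 45.7% (0 mM) in run 1 and 67.9% (4 mM) and 37.2% (0 mM) in run 2. Among cells with a UMI the mean was 24.8 UMIs at 4 mM and 19.7 at 0 mM in run 1. The mean in run 2 was 10.4 at 4 mM and 8.19 at 0 mM. The share of cells with a UMI differed by a larger factor than the mean among them.

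Epi-like cells had 2.26 and 2.62 CPM of HSD17B1 at 4 and 0 mM in run 1, and 2.88 and 2.32 CPM at 4 and 0 mM in run 2, and 3.60 to 6.86% of them had a UMI. The log2FC of TE-like over Epi-like cells was 7.60 ± 0.18 (194-fold, adjusted p = 9.68e-15, edgeR). In run 2 at 4 mM 2 Epi-like cells held 10 or more HSD17B1 UMIs, with up to 16 in a cell, against up to 3 in a cell at 0 mM. Whether the UMIs in Epi-like cells came from free RNA or from cells placed in the wrong class was not tested. HSD17B1 (chr17:42552922-42555214, plus strand) overlaps HSD17B1-AS1 on the other strand, and whether counting used strand is not given in the sources used here. The antisense gene had 1.86 CPM (4 mM) and 2.19 CPM (0 mM) in the TE-like cells of run 1, and 1.36 CPM (4 mM) and 3.02 CPM (0 mM) in run 2, against 1.70 to 2.34 CPM in Epi-like cells. In aggregates it had 5.00 CPM (4 mM) and 4.60 CPM (0 mM), above HSD17B1 itself at 2.05 CPM (4 mM) and 3.18 CPM (0 mM).

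**Figure D1:**
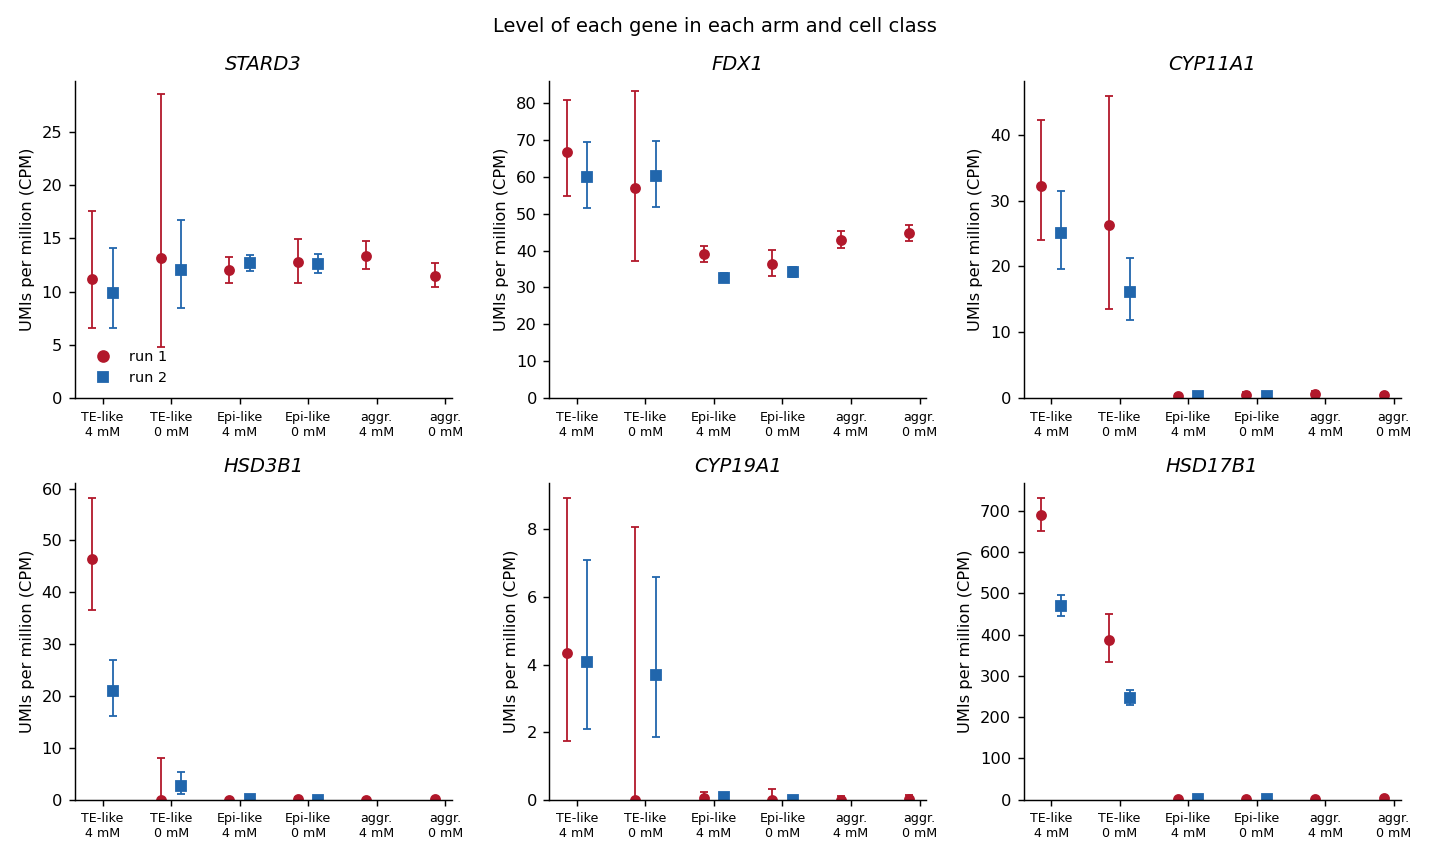
Level of the 6 genes in CPM in TE-like and Epi-like blastoid cells and in aggregates at 4 and 0 mM, each point an arm (run 1 circles, run 2 squares) with its exact Poisson interval for counting error. HSD3B1 at 46.4 and 21.0 CPM and HSD17B1 at 690 and 470 CPM in TE-like cells at 4 mM stand above the values at 0 mM of 0 and 2.68 CPM, and of 388 and 247 CPM, while STARD3 stays between 9.82 and 13.4 CPM in every sum.

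**Figure D2:**
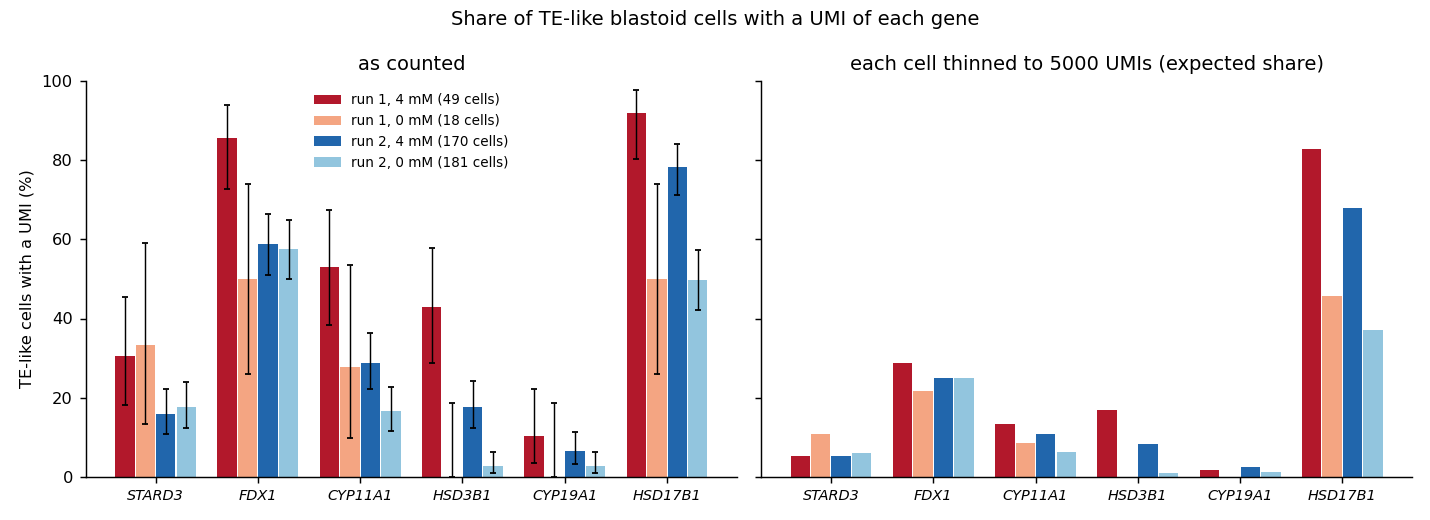
Share of TE-like blastoid cells with at least 1 UMI of each gene in the 4 arms, as counted (left, bars with exact 95% binomial intervals) and as calculated for each cell thinned to 5000 UMIs (right). HSD3B1 was found in 42.9 and 17.6% of cells at 4 mM and in 0 and 2.76% at 0 mM, and HSD17B1 in 91.8 and 78.2% at 4 mM and in 9 of 18 cells and 49.7% at 0 mM.

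In TE-like cells 2 of the 5 genes tested were thus higher at 4 mM and none was lower, where 0.648% of the 9104 genes tested (59) were higher and 0.791% (72) lower. These counts over all genes were 19 and 10 without run 1 at 4 mM, 21 and 27 without run 2 at 0 mM, and 90 and 107 without run 2 at 4 mM. In Epi-like cells none of the 4 genes tested passed with edgeR (0 also at an unadjusted p below 0.05), where 5.2% of 17014 genes were higher at 4 mM and 3.49% lower. The dose effect in TE-like cells minus that in Epi-like cells was positive for HSD17B1, with a log2 difference of 0.86 ± 0.22 (adjusted p = 0.0209, edgeR), and DESeq2 gave 0.87 with an adjusted p of 0.428. This difference passed for 0.38% of 13174 genes in the positive and 0.395% in the negative direction. For HSD3B1, with at most 9 UMIs in an Epi-like sum, the difference was 2.16 ± 1.82 (adjusted p = 0.977), and none of CYP11A1 (0.82 ± 0.60), CYP19A1 (−3.45 ± 2.02), FDX1 (0.07 ± 0.22) and STARD3 (−0.22 ± 0.39) passed, with adjusted p of 0.837 to 1. Between classes 3 of 4 genes tested were higher in TE-like cells, HSD17B1, CYP11A1 and FDX1, but so were 23.1% of 12343 genes, with 25.8% lower. Scaling by library totals alone moved the median log2FC between classes to −0.27 from −0.04 and the calls to 1741 higher and 4726 lower, against 2853 and 3189 with TMM factors. The log2FC of these 3 genes stayed positive and past the threshold under it, and that of STARD3 became −0.16 (adjusted p = 0.455).

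**Figure D3:**
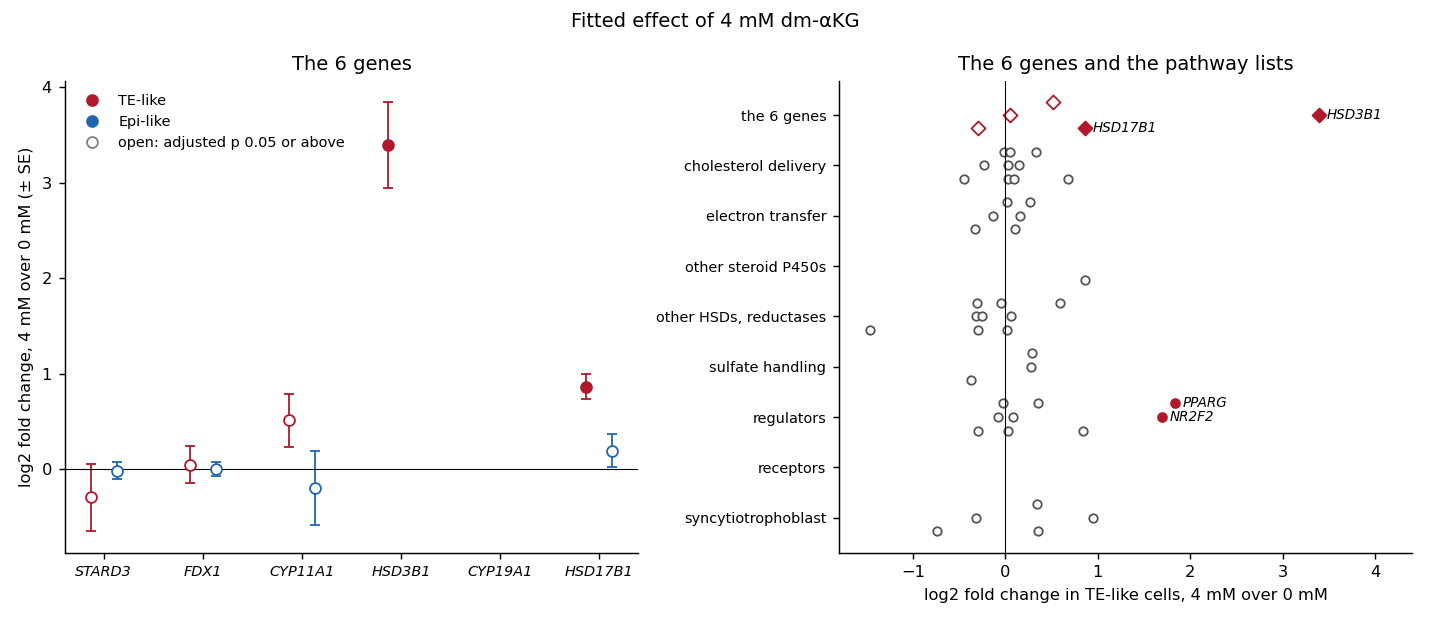
Fitted log2 fold change of 4 mM over 0 mM, left for the 6 genes in TE-like and Epi-like cells (± SE, filled where the adjusted p was below 0.05, no point where the gene was not tested), right for the same genes (diamonds) and the genes of 8 pathway lists (circles) in TE-like cells. HSD3B1 (3.40) and HSD17B1 (0.86) passed among the 6 genes, and NR2F2 (1.70) and PPARG (1.83) among the lists.

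Markers of the TE moved with these genes. The 10 TE markers that the split did not use summed to 2444 CPM at 4 mM and 1402 CPM at 0 mM in run 1, and to 2082 CPM at 4 mM and 1567 CPM at 0 mM in run 2, with none at 0 in any TE-like sum. Of these KRT19, KRT7 and HAND1 rose (3 of 10 tested) and none fell. The Epi markers summed to 110 CPM at 4 mM and 197 CPM at 0 mM in run 1, and to 253 CPM at 4 mM and 321 CPM at 0 mM in run 2, and DNMT3L fell (1 of 8 tested). DNMT3L alone had 66.9 CPM at 4 mM and 136 CPM at 0 mM in run 1, and 102 CPM at 4 mM and 143 CPM at 0 mM in run 2. The values of all other Epi markers except NANOG, SOX2 and KLF17 were also lower at 4 mM in both runs. NANOG, SOX2 and KLF17 had higher values at 4 mM in both runs, but few UMIs in run 1. There NANOG had 8 and 2 UMIs at 4 and 0 mM, SOX2 had 5 and 0, and KLF17 had 1 and 0. SOX2 and KLF17 at 4 mM lay under the floor of 6.57 CPM for run 1 at 0 mM. The part of these shifts in the HSD3B1 and HSD17B1 results was not tested, and in a sum of TE-like cells, more cells that express a gene and more RNA per cell cannot be told apart. With only cells in which either marker sum was at least 2 times the other, the log2FC was 3.49 for HSD3B1 and 0.81 for HSD17B1 (both adjusted p below 0.05, edgeR).

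The genes were found together in single cells. All 21 HSD3B1-positive TE-like cells of run 1 at 4 mM also had HSD17B1, against 24 of the 28 HSD3B1-negative cells, and in run 2 at 4 mM it was 29 of 30 against 104 of 140. Median depth was 30765 UMIs in the positive and 33052 UMIs in the negative cells of run 1, and 18581 and 16026 UMIs in run 2. CYP11A1 was found in 13 of 21 HSD3B1-positive and 13 of 28 negative cells in run 1, and in 16 of 30 and 33 of 140 in run 2, both at 4 mM. Of CYP11A1, HSD3B1, CYP19A1 and HSD17B1, at least 2 were found in 67.3% of TE-like cells at 4 mM and 22.2% at 0 mM in run 1. In run 2 this was so in 36.5% at 4 mM and 16.0% at 0 mM. All 4 were found in 2 cells at 4 mM in each run and in no cell at 0 mM. Cells without any of the 4 were 3 of 49 at 4 mM and 8 of 18 at 0 mM in run 1, and 32 of 170 at 4 mM and 87 of 181 at 0 mM in run 2. These shares follow depth as well as expression, and cells of an arm are not replicates, so no test was made.

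**Figure D4:**
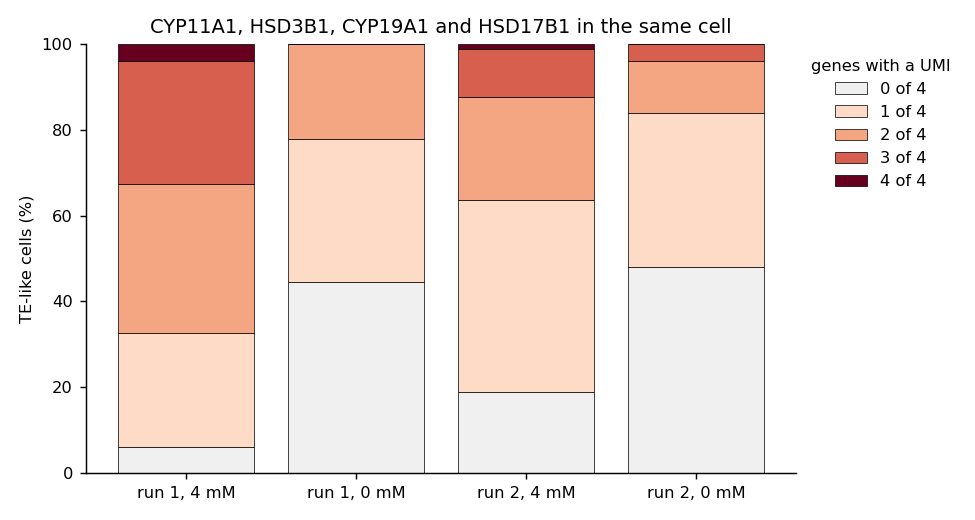
Number of the 4 enzyme genes CYP11A1, HSD3B1, CYP19A1 and HSD17B1 with a UMI in the same TE-like cell, as the percentage of the cells of each arm. Cells with at least 2 of the 4 were 67.3 and 36.5% at 4 mM, and 22.2 and 16.0% at 0 mM, in run 1 and run 2.

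Among regulators named for steroid genes or trophoblast, 2 of 9 tested rose with 4 mM in TE-like cells and none fell (median log2FC 0.09, against −0.01 over all genes tested, of which 0.648% were higher and 0.791% lower). NR2F2, a nuclear receptor of maturing trophectoderm, had 329 CPM at 4 mM and 50.4 CPM at 0 mM in run 1, and 178 CPM at 4 mM and 73.8 CPM at 0 mM in run 2 (log2FC 1.70 ± 0.20, adjusted p = 6.16e-06, edgeR). The study already reports NR2F2 as raised by dm-αKG in the TE-like cells of these data, so its rise here is no separate finding. The study's marker set of mature TE also holds CYP11A1 and CYP19A1. It reports the score of that set, less that of another TE set, as raised by dm-αKG in these cells. That score joins many genes and was compared cell by cell, unlike the values of single genes here. PPARG, a lipid-sensing nuclear receptor that placenta formation needs in mice, had 27.9 CPM at 4 mM and 0 at 0 mM in run 1, and 23.7 CPM at 4 mM and 8.38 CPM at 0 mM in run 2 (log2FC 1.83 ± 0.38, adjusted p = 0.00782). GATA2 (log2FC 0.35 ± 0.16, adjusted p = 0.482) and TFAP2A (−0.08 ± 0.30, adjusted p = 0.974) did not pass. NR2F2 was found in 45 of 49 TE-like cells at 4 mM and 11 of 18 at 0 mM in run 1. In run 2 it was found in 128 of 170 at 4 mM and 67 of 181 at 0 mM. HSD3B1 was found in 46.7% of the NR2F2-positive and in 0 of the 4 NR2F2-negative cells of run 1 at 4 mM, and in 21.9% and 4.76% of those of run 2 at 4 mM. In NR2F2-positive cells alone HSD3B1 had 51.1 CPM at 4 mM and 0 at 0 mM in run 1, and 25.7 CPM at 4 mM and 5.68 CPM at 0 mM in run 2. HSD17B1 in these cells had 758 CPM at 4 mM and 337 CPM at 0 mM in run 1, and 526 CPM at 4 mM and 379 CPM at 0 mM in run 2. In NR2F2-negative cells HSD17B1 had 6.79 CPM at 4 mM (4 cells) and 460 CPM at 0 mM (7 cells) in run 1. In run 2 it had 261 CPM at 4 mM (42 cells) and 154 CPM at 0 mM (114 cells). HSD3B1 in NR2F2-negative cells had 0 CPM at both doses in run 1, and 3.22 CPM at 4 mM and 0.57 CPM at 0 mM in run 2. A link of either gene with NR2F2 was not tested.

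No other list had a gene that passed between doses in TE-like cells. That held for 10 cholesterol delivery genes (median log2FC 0.04), 6 electron transfer and P450 partners (0.06), 1 other steroid P450 (0.86), 9 other hydroxysteroid dehydrogenases and reductases (−0.26), 3 sulfate handling genes (0.27) and 5 syncytiotrophoblast genes (0.35). At an unadjusted p below 0.05 with edgeR they held 1 gene (LRP2), 0, 1 (CYP1B1), 1 (HSD17B8), 0 and 2 (ERVW-1 and GDF15). None of the 8 steroid and gonadotropin receptors was high enough to be tested. Between classes, where 23.1% of all genes tested were higher and 25.8% lower in TE-like cells, 5 of 11 cholesterol delivery genes were higher and 2 lower in TE-like cells, among them LRP2, a lipoprotein receptor (log2FC 8.10 ± 0.22, adjusted p = 4.19e-14, edgeR). Also higher were ACAT2, which makes acetoacetyl-CoA for sterols (1.40 ± 0.08, adjusted p = 1e-09), SOAT1, which esterifies cholesterol (1.18 ± 0.11, adjusted p = 1.52e-07), and VDAC1, a channel of the outer mitochondrial membrane (0.60 ± 0.07, adjusted p = 4.45e-06). STS, which frees steroids from their sulfates, was higher in TE-like cells (log2FC 5.07 ± 0.20, adjusted p = 2.87e-12), and PAPSS2, which makes the sulfate donor, was lower (−2.65 ± 0.30, adjusted p = 1.99e-06). In all, 1 of 5 sulfate genes was higher and 3 were lower. The electron partners had 2 of 6 higher, PGRMC1 (0.79 ± 0.11) and CYB5R3 (0.36 ± 0.11). The other dehydrogenases had 3 of 11 higher and 2 lower, among them HSD17B12, which also elongates fatty acids (0.89 ± 0.11, adjusted p = 3.52e-06), and HSD17B6 (−1.57 ± 0.23, adjusted p = 3.32e-05). CYP1B1 was the only other steroid P450 tested and was higher (1.21 ± 0.29, adjusted p = 0.0026). CYP17A1, which would make androgens from pregnenolone, had 0 UMIs in all 4 TE-like sums. Of the regulators 7 of 10 were higher and 1 lower. The 6 syncytiotrophoblast genes tested were all higher in TE-like cells, TBX3, OVOL1, LEP and GDF15 with log2FC of 3.30 ± 0.17, 3.93 ± 0.26, 5.37 ± 0.41 and 1.13 ± 0.15. LRP2, OVOL1 and LEP, and of the regulators NR2F2 and TFAP2A, entered the test only through their TE-like sums, with all 4 Epi-like values below 1.35 CPM. The other 14 of the 20 in that list were too low to test, among them CGA, the hormone subunit shared by hCG, with 2 and 1 UMIs at 4 mM and 0 and 0 at 0 mM.

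At 40 h, when treatment ended, CYP11A1, HSD3B1, CYP19A1 and HSD17B1 were at or under 3.18 CPM. There was 1 aggregate arm per dose, so ratios carry counting error and no test. HSD3B1 had 0 UMIs in 1054 cells at 4 mM, which allows a share of cells with a UMI of up to 0.285% (exact interval up to 0.349%), and 2 UMIs in 1201 cells at 0 mM. CYP19A1 had 0 and 1 UMIs at 4 and 0 mM. HSD17B1 had 63 UMIs (2.05 CPM) at 4 mM and 115 UMIs (3.18 CPM) at 0 mM, a ratio of 0.643 (0.465 to 0.882). CYP11A1 had 21 UMIs (0.68 CPM) and 17 UMIs (0.47 CPM) at 4 and 0 mM, a ratio of 1.45 (0.729 to 2.93). FDX1 had 43.0 and 44.7 CPM at 4 and 0 mM, a ratio of 0.960, and STARD3 had 13.4 and 11.5 CPM, a ratio of 1.16 (1.01 to 1.34). TE-like cells of blastoids at 120 h in the same run had 337-fold (261 to 442) the HSD17B1 level of the aggregates at 4 mM and 122-fold (95.7 to 155) at 0 mM. For CYP11A1 these ratios were 47.2 (27.9 to 82.5) at 4 mM and 55.8 (24.3 to 124) at 0 mM, and for FDX1 1.56 (1.27 to 1.89) and 1.27 (0.83 to 1.87). The aggregates were not split into classes, so these ratios mix time and class. Epi-like cells at 120 h had 1.10-fold (0.776 to 1.57) the HSD17B1 level of the aggregates at 4 mM and 0.824-fold (0.535 to 1.23) at 0 mM. Their ratios at 4 and 0 mM were 0.498 (0.217 to 1.08) and 0.899 (0.259 to 2.54) for CYP11A1, and 0.910 and 0.815 for FDX1.

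The genes closest to each of the 6 in pattern were ranked by Pearson r of log2(CPM + 1) over the 10 sums, as a description, among 9156 or 9157 genes with a mean of at least 5 CPM. HSD17B1 and CYP11A1 were among each other's 3 closest (r = 0.997). VGLL1, a TEAD cofactor of trophoblast, was also among those of HSD17B1 (r = 0.998), and the long non-coding RNA UCA1 among those of CYP11A1 (r = 0.997). HSD3B1 was closest to MPP1, MME and ACER3 (r = 0.979, 0.979 and 0.978). CYP19A1 was closest to OSBPL9, WDYHV1 and RGS16 (r = 0.984, 0.982 and 0.980), and FDX1 to AAK1, ODC1 and CFL1 (r = 0.985, 0.981 and 0.979). STARD3 had the lowest values, with LINC01980, CCDC126 and IDH1 (r = 0.943, 0.926 and 0.912). The points share runs, depth and the split into classes.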

How the data were processed

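The data were UMI counts per gene and barcode of 2 capture runs (9431 and 15133 barcodes, 36601 genes), deposited as raw counts; per the submitters' notes, the authors used bcl2fastq 2.20.0.422, Cell Ranger 6.1.2 with the GRCh38 (2020-A) reference, and Seurat 4.3.0. Cultures were assigned from the hashtag counts with the HTODemux function (Seurat 5.3.0 under R 4.3.3), which left 6012 and 10400 singlets and set aside 512 and 1142 hashtag doublets and 2907 and 3591 negative barcodes. Doublets within a hashtag were not searched for. Cells with over 15% mitochondrial UMIs or under 7000 (run 1) or 5000 (run 2) UMIs were left out, as in the study. Median depth per kept arm was 15468 to 30058 UMIs.

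The study compared doses cell by cell. Here counts were summed per arm and class, filtered with filterByExpr, scaled by TMM and tested with edgeR 4.0.16 (glmQLFit, glmQLFTest; run, or arm, in the model; Benjamini-Hochberg over all genes tested, threshold 0.05). The SE is the log2FC over the root of F. With 1 residual degree of freedom per gene, the dose tests lean on a spread shared across genes. Runs are independent experiments per the study's methods. The fits were tested on simulated data. P-values measure the spread between these arms, largely as pooled over genes. For the difference of dose effects the prior degrees of freedom were infinite, so its edgeR p-values rest on the shared spread alone. Passing p-values of fits without the filter, with the marker margin or with all singlets are given as below 0.05. At a like SE they were far smaller than in the main fits. DESeq2 1.42.0, other scaling, filters, classes, singlet rules and leaving out arms were alternatives. The 6 genes and the lists were chosen with earlier results of these data known. All 6 genes are described; of each list up to 4 genes are named, those passing the dose test in TE-like cells, then the test between classes, by smallest adjusted p, with HSD3B2 and STAR. FDXR, CYP17A1, CGA, HSD17B8, ERVW-1 and HSD17B1-AS1, and single check markers, were named after their values were seen. For each of the 6 genes the 3 genes most alike in pattern are named, except 1 that is not reported here.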

Additional observations from a re-analysis of the deposited data

Results flagged for a closer look

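HSD17B1 stood out because its response to dm-αKG differed between classes of blastoid cell. The log2 difference of the dose effect in TE-like minus Epi-like cells was 0.855 (SE 0.22, adjusted p = 0.0209, edgeR), with the TE-like level higher at 4 mM in both runs and the Epi-like level lower in run 1 and higher in run 2. The range of this difference over the alternatives was 0.66 to 1.02, and DESeq2 gave an adjusted p of 0.428. The edgeR p-value rests on a spread shared by all genes and not on that of HSD17B1 itself.

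HSD17B1 also went the other way in aggregates at 40 h, where the ratio of 4 mM over 0 mM was 0.643, while both TE-like ratios at 120 h were above 1 (1.78 and 1.90). There was 1 aggregate arm per dose, and this difference was not tested.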

How the results depend on the processing

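The run was a term of the dose models, which pairs the 2 doses of a run, and the arm a term of the model between classes. In TE-like cells 59 genes were higher and 72 lower at 4 mM; these counts were 11 and 9 with DESeq2, 21 and 16 with the run not in the model, 101 and 144 with all hashtag singlets, and 111 were lower with only cells whose marker sums differed at least 2 times. Leaving out each arm gave 19 to 90 higher and 10 to 107 lower. In Epi-like cells 885 were higher and 593 lower, against 153 and 53 with DESeq2, 15 and 1 with the run not in the model, and 4 to 436 and 3 to 301 with an arm left out. Between classes 2853 were higher and 3189 lower, and scaling by library totals gave 1741 and 4726. The difference of dose effects had 50 positive and 52 negative calls, and 12 and 14 with DESeq2. The cause of these shifts was not tested. Thinned to 5000 UMIs, the share of HSD3B1-positive TE-like cells at 4 mM minus 0 mM was 16.9 points in run 1 and 7.28 in run 2, and that of FDX1 in run 1 was 7.21 points.

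Reversals were among values that did not pass. For FDX1 between doses, TE-like log2FC was −0.0096 in run 2 alone and −0.0043 to 0.1631 with an arm left out; in Epi-like cells it was −0.0059 with the marker margin, −0.0002 with the stricter hashtag quantile, −0.0648 in run 2 alone and −0.0913 to 0.1322 with an arm left out. For HSD17B1 in Epi-like cells it was −0.0526 with the margin, −0.1807 in run 1 alone and −0.1160 to 0.2763 with an arm left out. STARD3 between doses in Epi-like cells was 0.0125 in run 2 alone and −0.0956 to 0.0202 with an arm left out. STARD3 between classes was −0.1630 with library totals, −0.0331 with no filter and −0.0018 to 0.1617 with an arm left out. The difference of dose effects was 3.1054 for CYP19A1 in run 1 alone and 0.0169 for STARD3 with the margin. CYP19A1 had few UMIs, and run 1 at 0 mM had 18 TE-like cells.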

Other observations

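Other genes of the pathway moved little with dose in Epi-like cells. Of the cholesterol delivery list 1 of 14 genes tested rose and 2 fell, and of the regulators 2 of 11 rose. The lists of electron partners, other P450s, other dehydrogenases and syncytiotrophoblast genes had 1 gene each that fell, of 6, 2, 13 and 8 tested, among them CYP1B1, which hydroxylates oestrogens (log2FC −0.42 ± 0.14, adjusted p = 0.0421, edgeR), HSD17B6 (−0.30 ± 0.08, adjusted p = 0.018) and GDF15, a stress-induced cytokine made by placenta (−0.26 ± 0.08, adjusted p = 0.032). None of 5 sulfate genes and 4 receptors passed. These counts lie among 5.2% of all genes higher and 3.49% lower.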
